A study of Mus musculus with 6 samples.

Results

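The genes described here decide what a cell does with the pyruvate that glycolysis delivers. They are 10 of the 55414 genes in the table: the pyruvate kinase gene Pkm, the lactate dehydrogenase genes Ldha and Ldhb, the monocarboxylate carrier genes Slc16a1 and Slc16a3, the carrier chaperone gene Bsg, the pyruvate dehydrogenase gene Pdha1 and the pyruvate dehydrogenase kinase genes Pdk1, Pdk2 and Pdk3. Each was chosen by its symbol, as a gene of lactate production and export or of the control of pyruvate oxidation, and each matched 1 Ensembl identifier. RNA was sequenced from TM4 cells, a line from mouse testis that is labelled as Sertoli cells, the nurse cells of the seminiferous tubule. There were 6 libraries, 3 from cells given the agent labelled VC and 3 from control cells, all from the same line with no genetic change named. The sample titles and the series title point to vitamin C and the agent field names valine, so the treated cells are called VC; no dose or exposure time is given, and nothing says that the replicates were separate cultures, so p-values measure only the spread between these samples.

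Pyruvate kinase makes pyruvate in the last step of glycolysis. In the cytosol lactate dehydrogenase reduces pyruvate to lactate and so renews NAD+, and monocarboxylate transporters carry lactate out of the cell together with a proton. In mitochondria the pyruvate dehydrogenase complex instead turns pyruvate into acetyl-CoA, and its kinases switch the complex off by phosphorylation. Sertoli cells are known for sending much of their glucose carbon down the lactate branch, and the lactate they export is a main fuel of spermatocytes and spermatids, which lie behind the blood-testis barrier. Several of the genes, Ldha and Pdk1 among them, are textbook targets of the hypoxia-inducible factors, which bind DNA at short sites with the core ACGTG or GCGTG.

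Promoter windows are shown for both lactate dehydrogenase genes, because 1 was called lower and the other was not called, and for Pdk1 and Slc16a1, a kinase whose difference was about the size of that of Ldha and a carrier whose difference was near 0. Each window runs from 250 bases before to 50 bases after a RefSeq transcript start on build GRCm38.p6, read 5′ to 3′ along the gene. Capitals mark ACGTG and GCGTG on either strand; the palindrome CACGTG holds ACGTG on both strands.
Ldha, chr7:46845554-46845853, plus strand: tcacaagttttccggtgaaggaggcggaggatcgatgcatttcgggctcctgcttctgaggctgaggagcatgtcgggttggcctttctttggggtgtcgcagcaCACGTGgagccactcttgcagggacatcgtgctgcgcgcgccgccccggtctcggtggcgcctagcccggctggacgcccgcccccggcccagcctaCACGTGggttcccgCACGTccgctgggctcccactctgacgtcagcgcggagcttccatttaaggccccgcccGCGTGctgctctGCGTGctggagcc
Ldhb, chr6:142507908-142508207, minus strand: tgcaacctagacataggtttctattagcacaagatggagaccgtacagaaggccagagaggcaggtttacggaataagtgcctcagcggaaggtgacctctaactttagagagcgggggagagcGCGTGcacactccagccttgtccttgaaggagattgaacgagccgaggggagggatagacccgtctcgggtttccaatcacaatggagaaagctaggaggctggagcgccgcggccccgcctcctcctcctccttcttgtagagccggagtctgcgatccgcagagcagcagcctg
Pdk1, chr2:71872974-71873273, plus strand: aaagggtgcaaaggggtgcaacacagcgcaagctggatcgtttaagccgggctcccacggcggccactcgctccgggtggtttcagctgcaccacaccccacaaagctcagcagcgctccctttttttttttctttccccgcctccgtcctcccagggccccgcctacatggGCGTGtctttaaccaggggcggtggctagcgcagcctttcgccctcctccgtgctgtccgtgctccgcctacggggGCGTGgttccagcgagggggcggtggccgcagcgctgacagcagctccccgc
Slc16a1, chr3:104638414-104638713, plus strand: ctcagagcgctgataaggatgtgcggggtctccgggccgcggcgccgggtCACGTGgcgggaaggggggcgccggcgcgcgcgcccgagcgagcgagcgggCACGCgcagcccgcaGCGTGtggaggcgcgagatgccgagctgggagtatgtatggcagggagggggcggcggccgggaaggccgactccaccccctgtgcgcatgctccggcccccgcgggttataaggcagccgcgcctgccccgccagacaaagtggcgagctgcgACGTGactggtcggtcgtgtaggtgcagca

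The Ldha window held 5 matches to ACGTG, 4 of them in 2 copies of the palindrome CACGTG, and 2 matches to GCGTG. The Ldhb window held 1 GCGTG and no ACGTG. The Pdk1 window held 2 GCGTG and no ACGTG, and the Slc16a1 window held 3 ACGTG, 2 of them in 1 palindrome, and 2 GCGTG. Of the 9 genes with a window in the RefSeq table, 5 held ACGTG in the first window listed and 6 held GCGTG, where 19.6% and 32.4% of all 32851 windows do. The first windows listed for Slc16a3, Pdk2 and Pdk3 held ACGTG, those of Pdha1 and Pdk3 held GCGTG, and that of Pkm held neither. Pkm, Ldha, Pdk1 and Pdk2 have a second window, and Bsg has no window in the table. The second window of Pkm held 2 ACGTG and no GCGTG, and that of Ldha 2 GCGTG and no ACGTG. Those of Pdk1 and Pdk2 held neither. A match describes the letters of the window and says nothing of binding in these cells.

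Values are on a transcripts-per-million scale with 1 scaling factor per library, so they are adjusted for gene length and can be compared between genes. Over the 6 libraries Pkm had the highest mean value of the 10 genes, 1414, followed by Ldha at 1111 and Bsg at 695.4. These were the 89th, 118th and 192nd highest means among the 13972 genes kept by the filter on low values, which asked for a value of at least 1 in 3 or more libraries. Pdha1 at 110.9, Slc16a1 at 101.4, Pdk3 at 50.2, Ldhb at 22.4 and Pdk1 at 15.9 came next. Pdk2 at 0.893 and Slc16a3 at 0.858 were last. The values of Pdk2 and Slc16a3 overlapped, as did those of Pkm and Ldha across groups, where the highest Ldha value (1329, control replicate 3) exceeded the lowest Pkm value (1292, VC replicate 2); within each group Pkm lay above Ldha. The other neighbours in this order did not overlap. How reads that match several gene copies were counted is not given in the sources used here, which limits levels set between genes. Gapdh, which has many processed pseudogenes, was at 144.0 ± 1.10 in VC cells and 161.0 ± 11.1 in control cells (SD, n = 3 each), and the pseudogene Ldha-ps2 was at 8.76 to 12.02. Exons of the unclassified transcript Gm49759 cover 15.3% of the exon bases of Pkm on the same strand in GENCODE M21.

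**Figure D1:**
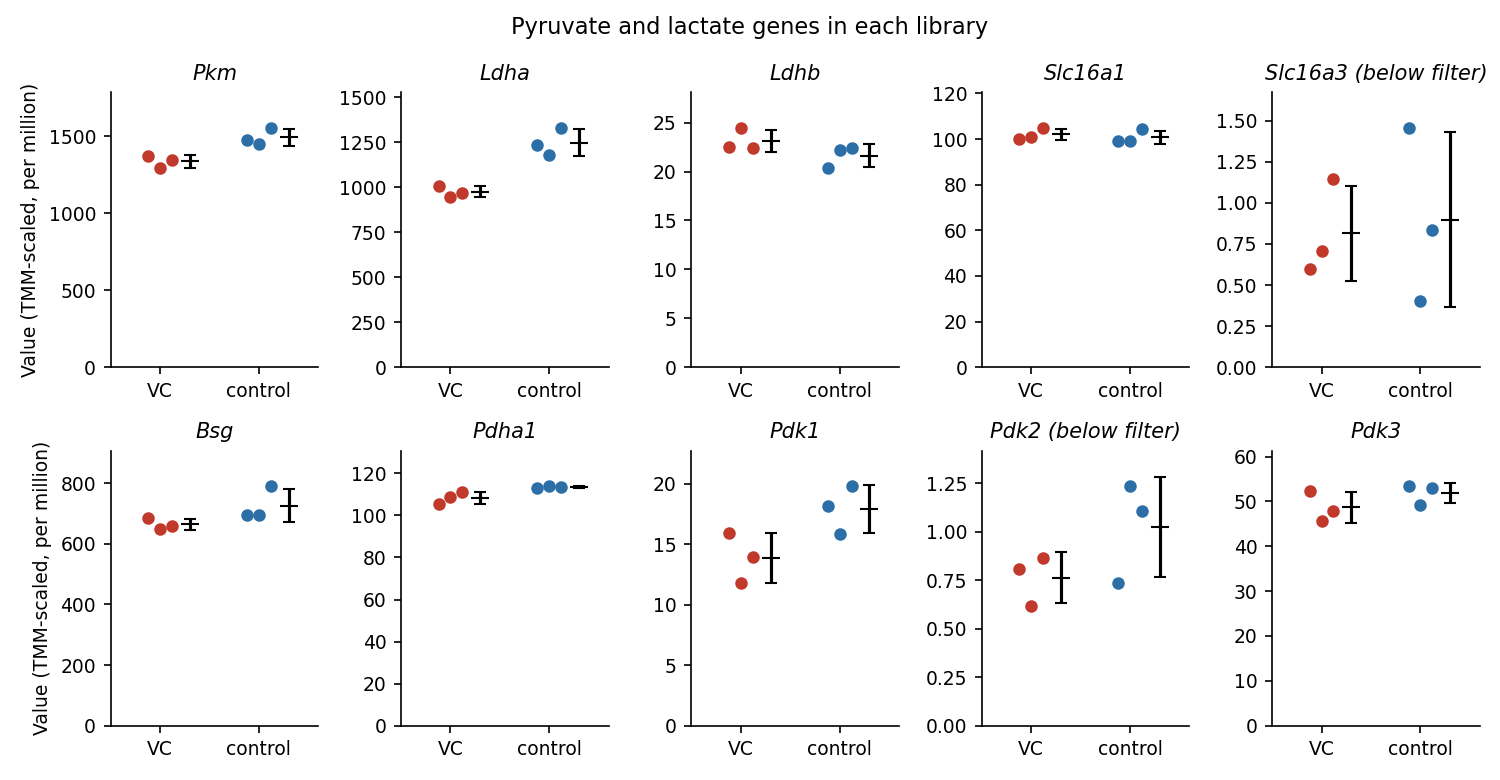
Value of each of the 10 genes in each library, with VC left of control; points are libraries, and the bar beside them is the mean ± SD (n = 3), on axes that start at 0. The VC points of Pkm, Ldha, Bsg and Pdha1 all lie below the control points, and Slc16a3 and Pdk2 lie near 1.

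VC cells had less Ldha mRNA than control cells, and Ldha was the only member past the threshold. In RNA from a whole culture, fewer cells that make an mRNA and less of it per cell cannot be told apart. Of the 10 genes, 8 passed the filter on low values, and limma called 1 of them lower and 0 higher at an adjusted p under 0.05. Across all 13972 genes tested, 0.258% were called lower, 0.429% higher and 0.687% in either direction. At an unadjusted p under 0.05 limma had 3 of the 8 genes, Ldha, Pkm and Pdk1, all lower, where 17.2% of all tested genes had such a p and 8.2% had it and were lower. In 4 of the 8 genes, Pkm, Ldha, Bsg and Pdha1, all VC values lay below all control values. In the other 4 the groups overlapped. This holds on the deposited scale, where the column total of every VC library was below that of every control library. With equal library totals the log2 fold change was -0.05 for Bsg and 0.0059 for Pdha1. Groups lay apart in either direction in 25.6% of all tested genes and with VC lower in 11.6%, and with VC lower in 34.2% of the 1252 genes with a mean value of 100 to 500 and in 59.2% of the 265 genes with a mean of 500 or more. Pkm, Ldha and Bsg belong to these 265 genes, of which 90.6% had a log2 fold change below 0, with a median of -0.11. Because of this general difference in the most abundant genes, the position of each tested member among genes of like level is given beside its test.

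**Figure D2:**
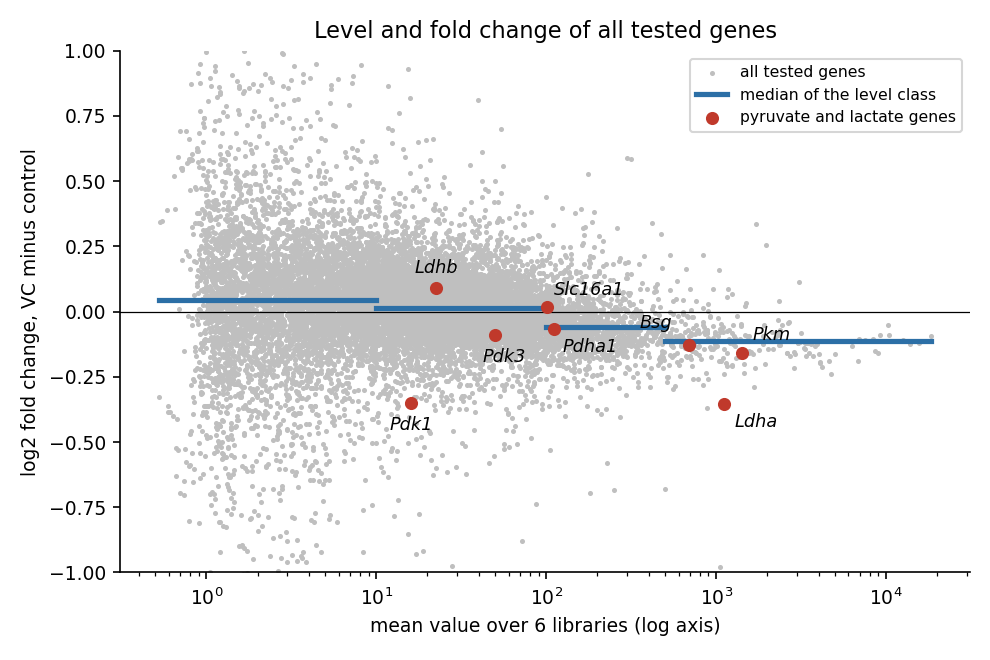
Mean value over the 6 libraries (log axis) and log2 fold change of VC minus control for all tested genes (grey), with 8 members in red and the median of each level class as a blue line; 111 genes lie outside the plotted range. Class medians run from 0.04 in genes with a mean under 10 to -0.11 in genes with a mean of 500 or more; Bsg lies near its class median and Ldha well below it.

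Pkm encodes the pyruvate kinase of most tissues outside the liver and red cells, in M1 and M2 forms that differ by 1 alternative exon and are not told apart in a table of genes. Its values were 1372, 1292 and 1344 in VC cells, against 1473, 1447 and 1553 in control cells. The lowest control value exceeded the highest VC value. The log2 fold change was -0.16 (95% interval -0.26 to -0.06), which did not pass limma's threshold (adjusted p = 0.146). Among the 265 genes with a mean of 500 or more, 65 had a lower log2 fold change than Pkm and 199 a higher one. With libraries normalized by cyclic loess, a step chosen after seeing the data that takes out a trend with level, the log2 fold change of Pkm was -0.04, and with equal library totals it was -0.09.

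None of the listed splicing factors that choose between the M1 and M2 exons moved past the threshold. The list of 7 genes of pyruvate kinase and its splicing factors also holds Myc and Nek1, which are not splicing factors. Of these 7 genes 6 were tested, with 0 called in either direction by limma, where 0.687% of all tested genes were. The median log2 fold change of the 6 was -0.03, against 0.01 for all genes. Hnrnpa1, which represses the M1 exon, was at 858.4 ± 10.5 in VC cells and 901.6 ± 14.9 in control cells (SD, n = 3 each, limma adjusted p = 0.315). The liver and red cell gene Pklr reached at most 0.080.

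Ldha encodes the M subunit of lactate dehydrogenase, the form linked with lactate production in glycolytic cells. It was at 1007, 946.8 and 969.0 in VC cells, against 1234, 1180 and 1329 in control cells. The groups lay far apart: the gap between the highest VC library and the lowest control library was wider than the range of the VC libraries. The mean fell by 21.9%, to 974.2 ± 30.4 in VC cells against 1247 ± 75.7 in control cells (SD, n = 3 each), a log2 fold change of -0.36 (SE 0.052, 95% interval -0.48 to -0.23, limma adjusted p = 0.0438). Only 3 of the 265 genes with a mean of 500 or more had a lower log2 fold change. These values rest on 24152 to 36525 recovered reads per library.

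The call of Ldha lay close to the threshold. It was kept under cyclic loess, where the log2 fold change was -0.25 (limma adjusted p = 0.0345), and with equal library totals (-0.28, adjusted p = 0.023), where the median of all genes was 0.08. Limma's adjusted p was 0.137 without VC replicate 1, 0.171 without VC replicate 2, 0.212 without VC replicate 3, 0.133 without control replicate 1 and 0.095 without control replicate 2. The adjusted p was 0.121 with no filter, 0.0559 after quantile normalization, 0.116 with no intensity trend and 0.131 with the replicate block. Without control replicate 3, the library that stood most apart from the others, the call was kept (adjusted p = 0.0462), with a log2 fold change of -0.31.

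Ldhb encodes the H subunit, the form of tissues that burn lactate. Its values were 22.5, 24.5 and 22.4 in VC cells, against 20.3, 22.2 and 22.4 in control cells. The groups overlapped, since 1 control library lay just above the lowest VC library. The log2 fold change was 0.09 (95% interval -0.05 to 0.23, limma adjusted p = 0.469). Of the 6814 genes with a mean of 10 to 100, 5120 had a lower log2 fold change. That of Ldhb was 0.049 without control replicate 1, 0.052 without VC replicate 2 and 0.16 with equal library totals, and it was not called in any of these.

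Ldha made up nearly the whole lactate dehydrogenase mRNA pool in both groups. Its share of the sum of Ldha and Ldhb was 97.7% ± 0.175 in VC cells and 98.3% ± 0.121 in control cells (SD, n = 3 each). The ratio of Ldha to Ldhb, which does not depend on the scaling of a library, was 42.2 ± 3.15 in VC cells and 57.7 ± 4.03 in control cells. All VC ratios lay below all control ratios, with a difference of -0.45 in the mean log2 ratio. The exact two-sided permutation test gave p = 0.10, the smallest that 3 libraries against 3 allow. The ratio is not free of the general difference with level. The median log2 fold change was -0.11 in the level class of Ldha and 0.01 in that of Ldhb. With quantile normalization the difference in the log2 ratio was -0.31. Ldhc, the lactate dehydrogenase of spermatogenic cells, reached at most 0.164, and Ldhal6b was listed at 0 in every library.

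**Figure D3:**
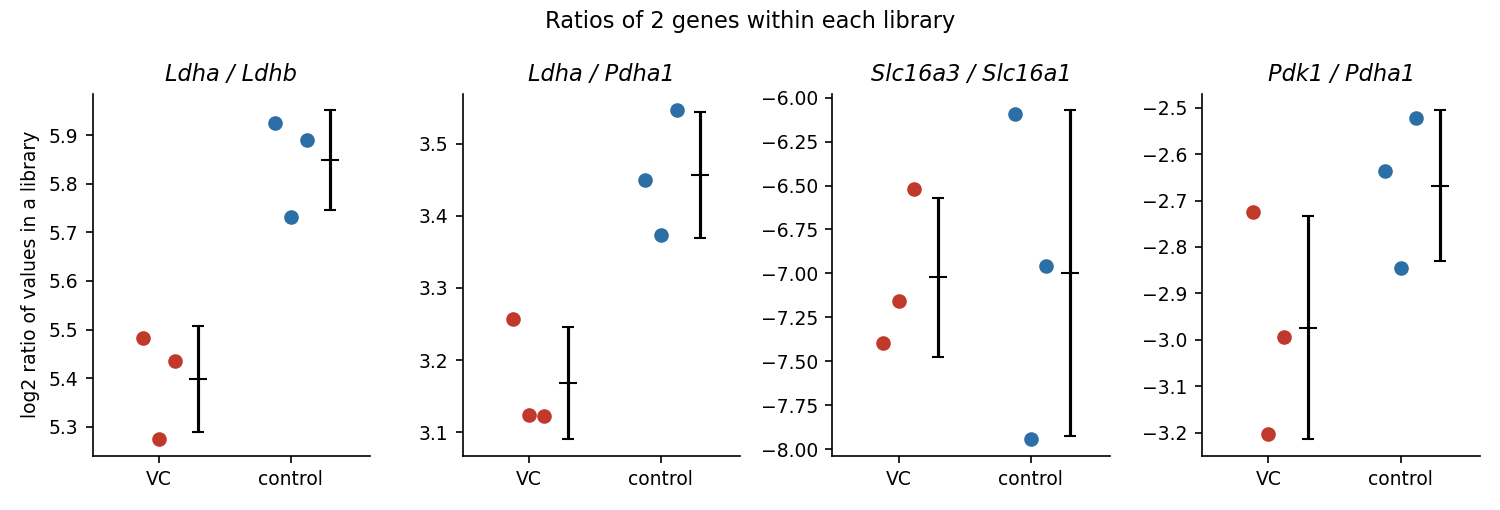
Log2 ratio of the values of 2 genes within each library, VC left of control; points are libraries and bars the mean ± SD (n = 3), and the axes do not start at 0. Ldha relative to Ldhb and to Pdha1 was lower in all 3 VC libraries than in any control library, while the other 2 ratios overlapped.

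Of the member carriers Slc16a1 and Slc16a3 only Slc16a1 was tested, and it showed no difference past the threshold. Slc16a1 encodes MCT1, the widely expressed proton-linked lactate transporter. Its values were 100.2, 101.0 and 104.9 in VC cells, against 99.3, 99.0 and 104.2 in control cells. The groups overlapped almost fully, and the 95% interval of the log2 fold change of 0.02 ran from -0.07 to 0.11 (limma adjusted p = 0.845); it was 0.09 with equal library totals. Of the 1252 genes with a mean of 100 to 500, 994 had a lower log2 fold change than Slc16a1.

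Slc16a3 encodes MCT4, the low-affinity carrier of strongly glycolytic cells. It was at 0.596, 0.708 and 1.14 in VC cells, against 1.46, 0.402 and 0.838 in control cells, and did not pass the filter. These values rest on 17 to 60 recovered reads per library, and the control group alone spans the VC group. Slc16a1 made up 99.2% ± 0.257 of the Slc16a1 and Slc16a3 pool in VC cells and 99.1% ± 0.526 in control cells (SD, n = 3 each). The log2 ratio of Slc16a3 to Slc16a1 averaged -7.02 ± 0.453 in VC cells and -7.00 ± 0.927 in control cells, with an exact two-sided permutation p of 1.

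Bsg encodes basigin, the membrane glycoprotein that brings MCT1 and MCT4 to the cell surface. It was at 683.8, 649.2 and 660.1 in VC cells, against 695.6, 694.0 and 789.7 in control cells. All VC values were lower, but control replicate 3 was far above the other controls. The log2 fold change was -0.13 (95% interval -0.26 to 0.01, limma adjusted p = 0.317), -0.06 without control replicate 3 and -0.05 with equal library totals. It lay within the body of its level class, where 106 of 265 genes had a lower log2 fold change.

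The list of 14 other lactate dehydrogenases, monocarboxylate carriers and their chaperones had 6 tested members and 0 called by limma. Of all tested genes 0.687% were called. The list median of the log2 fold change was 0.13, against 0.01 for all genes. Nptn, a relative of basigin that can also escort MCTs, was at 81.8 ± 1.66 in VC cells and 88.5 ± 1.01 in control cells (SD, n = 3 each, limma adjusted p = 0.16). Slc16a13, a carrier of the same family, was at 31.6 ± 1.32 in VC cells and 27.3 ± 1.03 in control cells (limma adjusted p = 0.123). Slc16a7, which encodes MCT2, the high-affinity carrier for lactate uptake, was listed at 0 in every library.

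On the oxidation side, Pdha1 encodes the catalytic alpha subunit of pyruvate dehydrogenase, the subunit that the kinases phosphorylate. It was at 105.3, 108.6 and 111.3 in VC cells, against 112.9, 113.8 and 113.7 in control cells. The control libraries were nearly identical and all VC libraries lay just below them. The log2 fold change was -0.07 (95% interval -0.14 to 0.01, limma adjusted p = 0.362), close to the median of -0.06 of the 1252 genes with a mean of 100 to 500, of which 593 had a lower one. With equal library totals it was 0.0059. Part of the Pdha1 exons, 16.2% of the bases, overlap Map3k15 on the opposite strand, but Map3k15 was at 0.305 at most.

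Pdk1, Pdk2, Pdk3 and Pdk4 encode the kinases that inactivate pyruvate dehydrogenase and so leave more pyruvate for lactate. Pdk3 was the most abundant, with 76.8% ± 1.51 of the summed value of the 4 genes in VC cells and 73.0% ± 1.31 in control cells (SD, n = 3 each). Pdk1 made up 21.8% ± 1.41 in VC cells and 25.2% ± 1.48 in control cells. Pdk2 held 1.20% ± 0.159 in VC cells and 1.45% ± 0.422 in control cells, and Pdk4, the kinase raised by fasting in muscle and liver, reached at most 0.456% in any library.

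Pdk1, a kinase gene induced by the hypoxia-inducible factors, was at 15.9, 11.8 and 14.0 in VC cells, against 18.2, 15.8 and 19.8 in control cells. The groups overlapped by a narrow margin, with VC replicate 1 just above control replicate 2. The log2 fold change of -0.35 was as large as that of Ldha, but its spread was wider (SE 0.12, 95% interval -0.63 to -0.07), and limma did not call it (adjusted p = 0.216). Among the 6814 genes with a mean of 10 to 100, 79 had a lower log2 fold change. It ran from -0.45 to -0.25 when 1 library was left out in turn.

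Pdk3 was at 52.3, 45.6 and 48.0 in VC cells, against 53.3, 49.3 and 52.9 in control cells. The groups overlapped, and the log2 fold change was -0.09 (95% interval -0.23 to 0.05, limma adjusted p = 0.479). In its level class of 6814 genes 1141 had a lower log2 fold change. That of Pdk3 was -0.14 without VC replicate 1, -0.047 without VC replicate 2 and -0.02 with equal library totals. Pdk2, the broadly expressed kinase, was at 0.809, 0.615 and 0.864 in VC cells, against 0.735, 1.23 and 1.10 in control cells. It did not pass the filter, its groups overlapped, and it rested on 15 to 31 recovered reads per library.

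**Figure D4:**
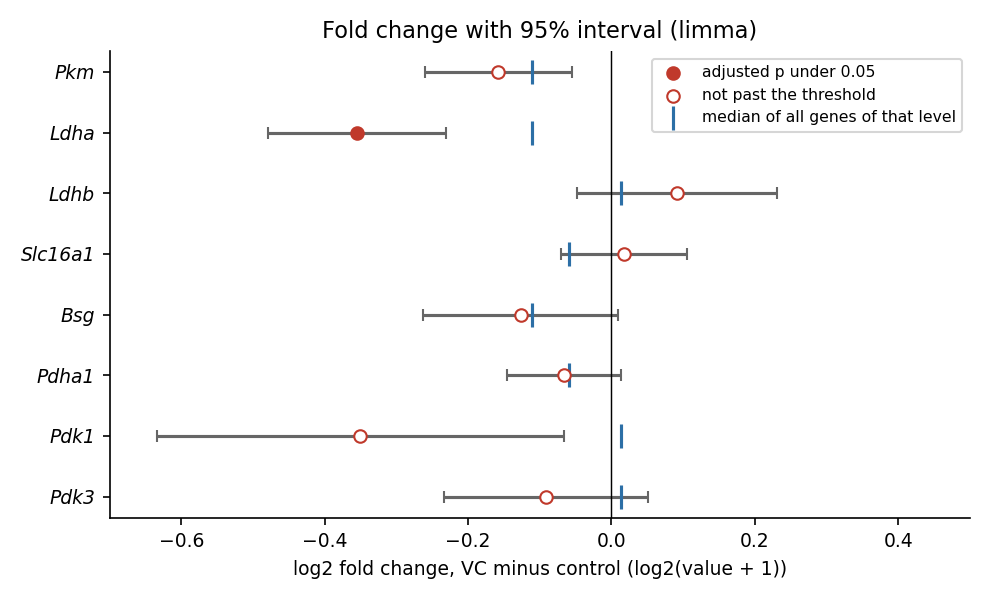
Log2 fold change (VC minus control, from log2(value + 1)) of the 8 members tested, with limma's 95% interval; a filled point marks an adjusted p under 0.05, and the blue tick is the median of all tested genes in the same level class. The interval of Ldha lies wholly below its tick at -0.11, and so does that of Pdk1 below its tick at 0.01, while the other 6 intervals include theirs.

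The mRNAs of a lactate production gene and a pyruvate oxidation gene were set side by side through the ratio of Ldha to Pdha1. It was 8.995 ± 0.49 in VC cells and 11.0 ± 0.664 in control cells (SD, n = 3 each). All VC ratios were lower, with a difference of -0.29 in the mean log2 ratio and an exact two-sided permutation p of 0.10, the smallest possible. With quantile normalization the difference in the log2 ratio was -0.23. The median log2 fold change was -0.11 in the level class of Ldha and -0.06 in that of Pdha1. Flux through either branch was not measured. The ratio of Pdk1 to Pdha1 was 0.128 ± 0.0215 in VC cells and 0.158 ± 0.0176 in control cells, and here the groups overlapped (difference -0.31 in the mean log2 ratio, exact two-sided permutation p = 0.20).

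Genes that feed the mitochondrial branch gave no call, where 0.687% of all tested genes were called in either direction. Of the list of 10 other genes of the pyruvate dehydrogenase complex and its regulators 9 were tested, 0 were called by limma and 6 had positive log2 fold changes; their median was 0.08, against 0.01 for all genes. Dlat, the acetyltransferase core of the complex, was at 59.1 ± 0.89 in VC cells and 53.8 ± 2.52 in control cells (SD, n = 3 each, limma adjusted p = 0.195). Dld, the dehydrogenase that reoxidizes its lipoyl groups, was at 74.5 ± 0.422 in VC cells and 77.1 ± 2.03 in control cells (limma adjusted p = 0.495). In the list of 9 genes of mitochondrial pyruvate entry and other pyruvate fates, 8 were tested and 0 called, with a median of -0.01. Pcx, which carboxylates pyruvate to oxaloacetate, was at 23.5 ± 0.423 in VC cells and 21.2 ± 0.81 in control cells (limma adjusted p = 0.19). Me1, the cytosolic malic enzyme, was at 51.7 ± 0.756 in VC cells and 54.5 ± 0.836 in control cells (limma adjusted p = 0.32).

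All 16 genes of the citric acid cycle list were tested and 0 were called by limma, where 0.687% of all tested genes were. The list median of the log2 fold change was 0.01, equal to that of all genes. Ogdh, the oxoglutarate dehydrogenase that is built like the pyruvate enzyme, was at 102.0 ± 1.43 in VC cells and 90.2 ± 1.98 in control cells (SD, n = 3 each) and came nearest to the threshold (limma adjusted p = 0.0733). Mdh2, the mitochondrial malate dehydrogenase, was at 307.8 ± 2.96 in VC cells and 316.4 ± 17.7 in control cells (adjusted p = 0.699). The list of 8 cytosolic NADH shuttle genes, which offer another way to renew NAD+, had 7 tested and 0 called, with a median of -0.04. Its most abundant gene, Got2, was at 212.9 ± 4.54 in VC cells and 219.2 ± 8.20 in control cells (limma adjusted p = 0.618), and Slc25a12, the aspartate-glutamate carrier nearest to the threshold, at 18.4 ± 0.768 and 19.5 ± 0.716 in VC and control cells (adjusted p = 0.473).

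Upstream of pyruvate, 16 of the list of 17 genes were tested; limma called 3 lower and 0 higher, and the median was -0.02. Pfkl, the liver-type phosphofructokinase subunit, was at 56.3, 53.7 and 55.9 in VC cells, against 79.4, 75.3 and 82.5 in control cells. Pgk1, phosphoglycerate kinase, was at 797.8, 734.2 and 776.2 in VC cells, against 982.6, 955.7 and 1046 in control cells. Eno1, enolase, was at 548.8, 574.9 and 564.5 in VC cells, against 654.5, 663.0 and 685.0 in control cells. In these 3 genes the groups lay apart. In all, 7 of the 16 lay apart with VC lower and 2, Eno2 and Hk1, with VC higher. Across all tested genes 0.258% were called lower. Groups lay apart in either direction in 25.6% and with VC lower in 11.6%. Among genes with a mean of 500 or more, the class of Pgk1, Eno1, Tpi1 and Pgam1, 59.2% lay apart with VC lower. In the class of Gapdh and Gpi1, a mean of 100 to 500, 34.2% did. In that of Pfkl, a mean of 10 to 100, 11.0% did. Eno2, the neuronal enolase, had a log2 fold change of 0.36 (limma adjusted p = 0.126) and Hk1, a hexokinase, one of 0.12 (adjusted p = 0.201), and neither passed the threshold.

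**Figure D5:**
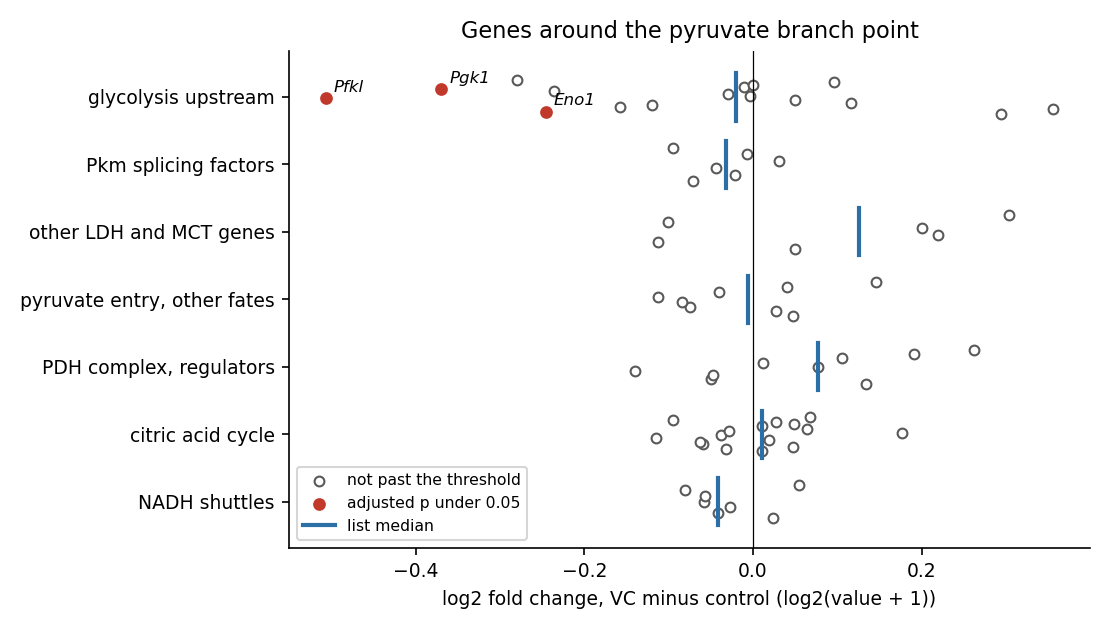
Log2 fold change of VC minus control for each tested gene of the 7 lists around pyruvate, with the list median as a blue line; red points passed limma's threshold over all genes. The 3 calls, Pfkl, Pgk1 and Eno1, all lie in glycolysis upstream of pyruvate, and the other lists have none. Of all tested genes 0.687% were called.

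The genes whose pattern over the 6 libraries was most like that of Ldha were found among the 7525 genes that had a mean of 10 or more and a name other than a predicted or clone name, by the Euclidean distance between centred log2 values. The nearest was Id3, which blocks DNA binding by helix-loop-helix proteins, at a distance of 0.0389. It was followed by Pgk1 at 0.0485, Pdia6, a disulfide isomerase of the endoplasmic reticulum, at 0.0843, P4ha1, a collagen prolyl hydroxylase, at 0.0851, and Tprgl at 0.0928. Among the members the nearest to Ldha were Pkm at 0.247 and Pdk1 at 0.248, which ranked 308th and 309th among all tested genes. Ldhb was the farthest at 0.585. These distances describe 6 libraries and share the scaling of each.

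The 6 libraries held 20408425 to 22316857 recovered reads each. No pair agreed within sampling noise, and control replicate 3 stood apart: its reads differed from another library's by a chi-square per degree of freedom of 8.76 to 15.6, against 2.65 to 6.69 for pairs without it. Of 18 Sertoli markers 12 passed the filter, but the defining genes Wt1, Fshr and Dmrt1 were listed at 0 in every library, and the 12 germ cell markers summed to 3.55 to 4.17 in VC cells and 2.21 to 3.44 in control cells. Median log2 fold changes were above 0 in the Sertoli (0.15), germ cell (0.16), Leydig (0.11), macrophage (0.05) and endothelial (0.10) marker lists. These medians rest on 12, 2, 1, 2 and 3 tested genes, of which 0 were called. Several other measures were, like Ldha, lower in VC cells. The 7 myoid and smooth muscle markers summed to 664.8 to 681.2 in VC cells and 1030 to 1129 in control cells. Of the 5 tested 3 were called lower, where 0.258% of all tested genes were. The mitochondrially encoded protein genes summed to 89867 to 95915 in VC cells and 99586 to 101617 in control cells. The cytosolic ribosomal protein genes summed to 59752 to 62181 in VC cells and 62641 to 70657 in control cells. Among the 13 mitochondrial and 80 ribosomal genes tested 0 were called, where 0.687% of all tested genes were. The mitochondrial and ribosomal lists had median log2 fold changes of -0.12 and -0.11, against -0.11 for all genes with a mean of 500 or more and -0.36 for Ldha. Genes of both lists with such a mean belong to that class themselves, so the list medians are not independent of the class median. The part of these measures in the lower Ldha value was not tested.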

How the data were processed

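RNA was extracted with Trizol and made into TruSeq libraries, per the labels' protocols, and HISAT2 aligned the reads to GRCm39, per the submitters' processing notes. For the counting tool and annotation the sources used here give nothing. The deposited table holds a non-negative signal for each gene and library that behaves as TPM times 1 factor per library (TMM scaling, going by its name): column totals run from 966031 to 1058206 with a geometric mean of 1000000. All VC totals (966031 to 983802) lay below all control totals. No filter on low values had been applied by the authors.

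Symbols and exon lengths came from GENCODE M21 (build GRCm38) and promoter windows from RefSeq (GRCm38.p6); 52081 genes had a symbol. Multiplied by exon length, values came out as whole numbers of reads, at 1 step for each library, in 98.7% to 98.9% of values (within 0.1 read, up to 1000 reads), and the recovered reads served only for depth and 1 alternative.

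Genes had to reach a value of 1 in 3 or more of the 6 libraries (13972 did). VC was compared with control on log2(value + 1) by two-sided tests in limma 3.58.1 under R 4.3.3 (empirical Bayes, variance trend with level); p-values were adjusted over all genes after Benjamini and Hochberg, with a threshold of 0.05. Fold changes on this scale understate the change of low genes. Ratios within a library were compared by exact permutation. The members, the lists and these tests were chosen with earlier results of these data known. All members are named, and of each list the called genes or else the gene with the smallest adjusted p and the most abundant one; Pklr, Pdk4, Ldhc, Ldhal6b, Slc16a7, Gapdh, Map3k15, Gm49759 and Ldha-ps2 were added after their values were seen. The fit was tested on simulated data, but no outcome of that test is reported here. Alternatives changed the pseudocount, filter, scaling, variance trend, library weights, replicate block and libraries included. Python 3.11.15, pandas 2.3.3, numpy 2.4.6 and matplotlib 3.10.9 were used for tables and figures.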

Additional observations from a re-analysis of the deposited data

How the results depend on the processing

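Against 96 genes called over all tested, limma called 30 with no filter, 183 with a filter of 5, 217 with equal totals (182 higher and 35 lower, so that 83.9% of calls were higher, against 62.5% on the deposited scale), 6 with no intensity trend, 254 with library weights and 604 of 13772 by limma-voom on the recovered reads. Leaving out 1 library gave 0 to 82 genes, with 1637 to 2484 at an unadjusted p under 0.05. Instead of 1 member called, 0 were called with no filter, with quantile normalization, with no intensity trend and with the replicate block, and 0 to 1 when a library was left out. The replicate block called 0 genes (2039 at an unadjusted p under 0.05). Same-numbered libraries did not deviate together (r of -0.02, -0.01 and 0.01 across genes), and not every library correlated best with its own number. With 3 libraries per group these r values cannot settle whether the numbers pair libraries, and the sample titles do not say.

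The log2 fold change of Ldha was below 0 in all 17 alternatives, from -0.39 to -0.25; its call was lost in 9 of them and its adjusted p ran from 0.0014 to 0.212. The difference in the log2 ratio of Ldha to Ldhb was -0.31 with quantile normalization and -0.51 to -0.39 when a library was left out. That of Ldha to Pdha1 was -0.33 to -0.24, of Pdk1 to Pdha1 -0.43 to -0.19 and of Slc16a3 to Slc16a1 -0.50 to 0.43. Pdha1 turned to 0.0059 with equal totals, and Slc16a1 ran from -0.0022 (without VC replicate 3) to 0.089 (with equal totals). When a library was left out, the highest value of Slc16a1 was 0.041 (without control replicate 3). The cause of these changes was not tested. No other tested member changed direction or was called in any of the 17 alternatives. Slc16a3 and Pdk2 rest on 15 to 60 recovered reads per library.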
